A study of Homo sapiens with 10 samples.

Results

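This account follows 9 genes that set how immune effectors see a tumor cell, out of 18144 genes listed for PC-3 spheroids with and without topotecan. They were taken by symbol and all 9 had a row. CD55, CD46 and CD59 encode membrane regulators of complement. HLA-B, HLA-C and HLA-E encode heavy chains of MHC class I, B2M encodes the light chain that these share, and TAP1 and TAPBP encode parts of the machine that loads them with peptide. PC-3 is an androgen receptor-low prostate cancer cell line, here wild type by label and grown as three-dimensional spheroids, and topotecan is a topoisomerase I inhibitor. Bulk mRNA-seq values were available for 7 libraries, 1 per treatment and day. They were untreated (CTRL) spheroids on days 0, 3 and 7, conventional topotecan (CON, here CONV-TOPO), given once as a bolus on day 0, on days 3 and 7, and extended exposure (EE, labelled METRO and here EE-TOPO), given as a daily fraction, on days 3 and 7. The labels place the last collection on day 7, whereas the study text speaks of a longer exposure, and the labels are followed here. The 3 day-1 samples were not analysed here. Estimated depth ran from 15024000 to 22477000 reads per library. With 1 library per treatment and day, no value has a replicate error, and every interval given for a single library covers counting error only.

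Complement proteins that settle on a cell surface are inactivated by CD55, which takes apart the convertases, and by CD46, a cofactor for their cleavage, while CD59 blocks the final membrane attack complex. CD55 and CD59 are held in the membrane by a GPI anchor and CD46 by a transmembrane segment. MHC class I molecules carry peptides from inside the cell to its surface, where cytotoxic T cells read them, and their genes are known targets of interferon and NF-kB signalling. HLA-E mainly presents peptides taken from the leader sequences of other class I chains and is read by NKG2A on natural killer (NK) cells.

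The upstream sequences are shown because known response elements for both signals lie close to the start sites of class I genes. RefSeq upstream windows (250 bases before a start, GRCh38.p14) were matched for 8 of the 9 genes, while HLA-E had no entry. Those at the first start of each gene, other than TAPBP, are printed 5′ to 3′ on the strand of the gene, and capitals mark an IRF core (AANNGAAA) or an NF-kB match on either strand. The class I genes come first and the complement regulators follow.

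HLA-B, chr6:31357180-31357429, minus strand: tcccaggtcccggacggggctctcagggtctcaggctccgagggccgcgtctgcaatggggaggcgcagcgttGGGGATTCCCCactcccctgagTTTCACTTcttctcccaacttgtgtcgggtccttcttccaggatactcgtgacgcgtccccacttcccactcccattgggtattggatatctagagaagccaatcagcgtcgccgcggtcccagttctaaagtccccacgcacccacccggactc

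HLA-C, chr6:31272137-31272342, minus strand, cut where the listed gene begins: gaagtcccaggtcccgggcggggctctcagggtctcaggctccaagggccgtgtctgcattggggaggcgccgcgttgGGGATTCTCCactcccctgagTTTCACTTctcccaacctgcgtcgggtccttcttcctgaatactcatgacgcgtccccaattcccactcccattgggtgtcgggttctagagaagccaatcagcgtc

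B2M, chr15:44711267-44711516, plus strand: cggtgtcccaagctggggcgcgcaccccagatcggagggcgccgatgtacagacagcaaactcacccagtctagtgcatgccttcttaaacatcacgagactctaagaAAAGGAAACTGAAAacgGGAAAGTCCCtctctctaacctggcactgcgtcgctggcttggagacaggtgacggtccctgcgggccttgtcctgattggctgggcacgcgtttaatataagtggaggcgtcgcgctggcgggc

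TAP1, chr6:32853705-32853954, minus strand: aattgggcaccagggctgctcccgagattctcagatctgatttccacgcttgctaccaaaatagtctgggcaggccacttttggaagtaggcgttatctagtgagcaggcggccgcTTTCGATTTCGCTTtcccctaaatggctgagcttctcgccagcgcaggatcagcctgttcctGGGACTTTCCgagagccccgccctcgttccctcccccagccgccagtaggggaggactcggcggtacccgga

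CD55, chr1:207321428-207321677, plus strand: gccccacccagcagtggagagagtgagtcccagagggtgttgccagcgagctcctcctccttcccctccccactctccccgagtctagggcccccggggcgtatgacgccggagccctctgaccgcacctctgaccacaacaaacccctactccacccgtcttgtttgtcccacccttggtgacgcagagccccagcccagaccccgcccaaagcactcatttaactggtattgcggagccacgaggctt

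CD46, chr1:207751788-207752037, plus strand: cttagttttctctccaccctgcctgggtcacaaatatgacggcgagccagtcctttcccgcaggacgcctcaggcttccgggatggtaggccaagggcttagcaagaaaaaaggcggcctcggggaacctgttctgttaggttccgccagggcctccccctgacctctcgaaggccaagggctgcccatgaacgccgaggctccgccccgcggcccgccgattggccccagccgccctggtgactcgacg

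CD59, chr11:33736480-33736729, minus strand: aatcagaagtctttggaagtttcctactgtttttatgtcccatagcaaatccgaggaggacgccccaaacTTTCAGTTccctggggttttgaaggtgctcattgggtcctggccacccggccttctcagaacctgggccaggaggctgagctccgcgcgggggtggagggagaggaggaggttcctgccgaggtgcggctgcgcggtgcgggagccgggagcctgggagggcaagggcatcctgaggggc

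All 5 class I windows searched at the first start of each gene, TAPBP included, held an NF-kB match and an IRF core. The interferon-stimulated response element (ISRE, GAAANNGAAA, which contains an IRF core and overlaps it) occurred in a pair of overlapping copies at B2M, TAP1 and TAPBP, and it was not found at HLA-B or HLA-C. At TAPBP the copies lay between 20 and 5 bases before the RefSeq start, inside the gene as the expression table lists it, so that window is not printed. No IRF core, ISRE or NF-kB match was found in the CD55 window or in either of the 2 CD46 windows. The first CD59 window held 1 IRF core and no NF-kB match. Another CD59 window, chr11:33736424-33736673, overlaps the first and held the same IRF core. The one at chr11:33722950-33723199 held a different IRF core, and the one at chr11:33722728-33722977 held none. The further TAP1 window, chr6:32852762-32853011, held no IRF core, ISRE or NF-kB match. Over all 35116 windows of this length, 20.3% held an IRF core, 3.02% an ISRE and 9.96% an NF-kB match. These matches describe letters, and no binding was measured.

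In untreated spheroids, B2M was the most abundant of the 9 transcripts per kilobase of transcript, at 776 scaled CPM per kb on day 0, 1055 on day 3 and 971 on day 7. Scaled CPM are the deposited CPM (counts per 1000000 counted reads) after a further scaling between libraries, and per kb values divide them by the length of the canonical GENCODE transcript. CD59 was at 193, 154 and 188 scaled CPM per kb on the same days, and ranked 2 or 3 of the 9. CD55 was at 83.4, 105 and 88.1, and CD46 at 66.3, 57.0 and 85.1. HLA-B ranked 8 of the 9 on day 0, at 51.2, and 5 on days 3 and 7, at 143 and 96.5. In all 4 topotecan libraries, the per kb order opened with B2M, HLA-C, HLA-B, HLA-E and CD59, with HLA-B between 306 and 629 scaled CPM per kb.

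The untreated libraries also differed among themselves. HLA-B was 2.78-fold higher on day 3 than on day 0 (counting interval 2.63 to 2.95), TAP1 2.47-fold, HLA-C 1.82-fold and HLA-E 1.73-fold. These 4 of the 9 genes passed 1.5-fold upward, as did 4.52% of 9917 genes with at least 10 CPM on average in that pair. On day 7, HLA-B was 1.88-fold and TAP1 1.62-fold above day 0 (2 of 9 genes, against 3.69% of all genes compared), and TAP1 was at 0.655 times its day-3 level (lower by 1.5-fold in 3.98% of genes). The 3 complement regulators stayed within 1.5-fold in each of these pairs, where 2.81% of genes passed it downward from day 0 to day 3, 2.13% from day 0 to day 7, and 3.76% passed it upward from day 3 to day 7. With 1 untreated library per day, a difference between days cannot be told from one between libraries. For the class I genes, the baseline therefore depends on which untreated library is used. Both the same-day ratios and the fits below are given.

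**Figure D1:**
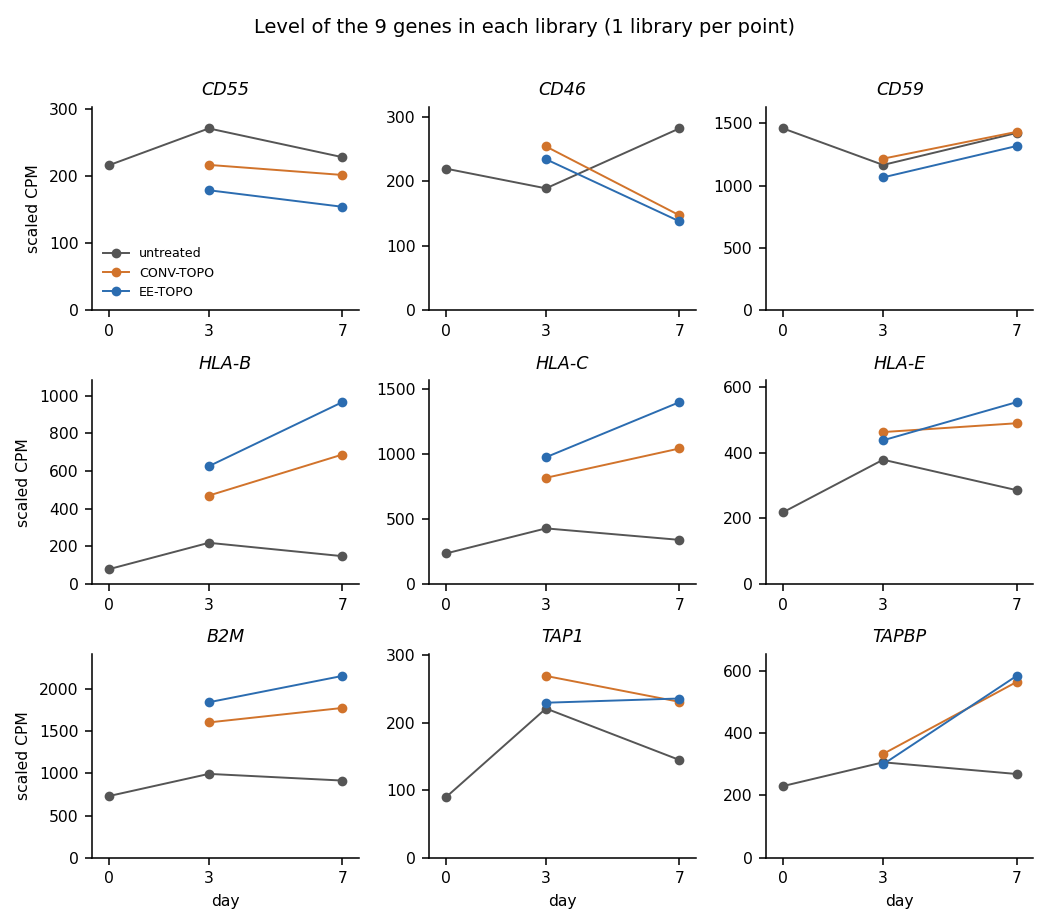
Each panel plots scaled CPM (y axis, from 0) of 1 gene against day (x axis), with 1 point per library and lines joining libraries of 1 treatment. HLA-B, HLA-C and B2M lie higher in all 4 topotecan libraries than in the 3 untreated ones, CD46 crosses from above to below the untreated library between days 3 and 7, and CD59 stays between 1066 and 1458 scaled CPM.

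HLA-B (chr6:31353875-31357179, minus strand) had 78.7, 219 and 148 scaled CPM in untreated spheroids on days 0, 3 and 7. CONV-TOPO libraries held 469.9 on day 3 and 688 on day 7, and EE-TOPO libraries 626 and 966. Every topotecan library was above every untreated one, and the lowest value, on untreated day 0, rested on an estimated 1541 reads (74.8 to 82.7 scaled CPM). Relative to same-day untreated spheroids, HLA-B was 2.14-fold higher in CONV-TOPO and 2.86-fold in EE-TOPO on day 3, and 4.64-fold and 6.52-fold on day 7. HLA-C (chr6:31268749-31272136, minus strand) held 235, 428 and 339 scaled CPM without drug. It held 816 and 1041 with CONV-TOPO and 974 and 1397 with EE-TOPO on days 3 and 7. The groups did not overlap, and the same-day ratios were 1.91 and 2.28 on day 3 and 3.07 and 4.12 on day 7. Class I heavy chain genes share long stretches of sequence and the cell line's alleles may differ from the reference, so the division of reads among them is uncertain.

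HLA-E (chr6:30489509-30494194, plus strand) had 218, 378 and 286 scaled CPM in untreated spheroids. It had 463 and 489 with CONV-TOPO and 437 and 554 with EE-TOPO. The groups did not overlap, but on day 3 the ratios to untreated were only 1.22 and 1.16, since the untreated library was itself high, and on day 7 they were 1.71 and 1.94. B2M (chr15:44711517-44718145, plus strand) was at 731, 995 and 916 without drug. It held 1605 and 1776 in the CONV-TOPO libraries and 1844 and 2156 in the EE-TOPO libraries, so the groups did not overlap. Its same-day ratios were 1.61 and 1.85 on day 3 and 1.94 and 2.35 on day 7.

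TAP1 (chr6:32845209-32853704, minus strand), a subunit of the peptide transporter, had 89.6, 221 and 145 scaled CPM in untreated spheroids. It had 269 and 231 with CONV-TOPO and 229 and 236 with EE-TOPO, so that only a narrow gap separated the lowest topotecan library from the untreated day-3 library. The day-3 ratios were 1.22 and 1.04 and the day-7 ratios 1.59 and 1.63. TAP1 overlaps PSMB8-AS1 on the other strand, and whether the counting used strand is not given in the sources used here. TAPBP (chr6:33299695-33314387, minus strand), which encodes tapasin, the bridge between transporter and class I chain, had 230.2, 306 and 269 without drug. On day 3 the CONV-TOPO and EE-TOPO libraries held 333 and 300.2, which was 1.09 and 0.979 times the untreated library. On day 7 they held 564 and 584, which was 2.10-fold and 2.17-fold.

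CD55 (chr1:207321678-207360966, plus strand) held 216, 271 and 228 scaled CPM in untreated spheroids. It held 217 and 202 with CONV-TOPO and 179 and 154 with EE-TOPO. The EE-TOPO libraries were the lowest of the 7, while the CONV-TOPO day-3 library was level with untreated day 0. Same-day ratios were 0.799 for CONV-TOPO and 0.660 for EE-TOPO on day 3 and 0.884 and 0.676 on day 7. CD46 (chr1:207752038-207795516, plus strand) held 220.0, 189 and 282 without drug. On day 3 it held 254 with CONV-TOPO and 235 with EE-TOPO, 1.34-fold and 1.24-fold the untreated library. On day 7 it held 147 and 138, which was 0.522 and 0.489 times untreated, and these were the lowest of its 7 values. CD59 (chr11:33703010-33736479, minus strand) held 1458, 1165 and 1422 without drug. It held 1216 and 1430.5 with CONV-TOPO and 1066 and 1317 with EE-TOPO, and all 4 same-day ratios lay between 0.914 and 1.04.

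Counted together, 3 of the 9 genes (HLA-B, HLA-C and B2M) were at least 1.5-fold higher than untreated on day 3 in CONV-TOPO and the same 3 in EE-TOPO, where the shares of all genes compared were 2.48% and 5.65%. On day 7, all 6 class I genes passed that fold in both regimens, against 22.0% and 22.4% of genes. CD55 passed it downward on day 3 in EE-TOPO only (background 4.68%, and 2.32% in CONV-TOPO), and the difference between the regimens was not tested by that count. CD46 passed it downward on day 7 in both (background 20.8% and 22.6%). The median log2 ratio of the 6 class I genes on day 7 was 1.01 in CONV-TOPO and 1.18 in EE-TOPO, and that of the 3 complement regulators was -0.18 and -0.57, beside 0.0033 and -0.0047 for all genes compared. The comparisons share their untreated libraries. In 5 of the 9 genes (HLA-B, HLA-C, HLA-E, B2M and TAP1) all 4 topotecan libraries were above all 3 untreated ones, a pattern found upward in 4.94% of the 14836 genes tested and downward in 5.78%. In bulk RNA, fewer cells of a type and less RNA per cell cannot be told apart.

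**Figure D2:**
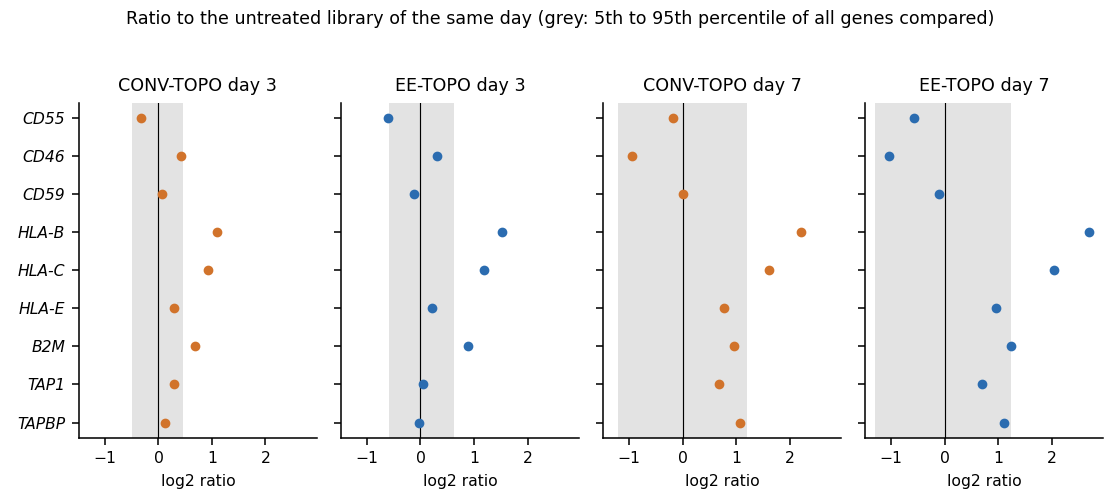
Log2 ratio of scaled CPM to the untreated library of the same day (x axis) for each gene (y axis), in the 4 topotecan libraries, with bars for 95% counting intervals, mostly hidden by the points, and a grey band for the 5th to 95th percentile of all genes compared. On day 3, HLA-B, HLA-C and B2M lie to the right of the band in both regimens and CD55 at its left edge in EE-TOPO, and on day 7 the band is wide enough to hold all but HLA-B, HLA-C and, in EE-TOPO, B2M.

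The day-7 topotecan libraries differed from untreated across the whole transcriptome, and the difference moved with the length of genes. Among genes spanning under 10 kb, the median log2 ratio to untreated was 0.64 in CONV-TOPO (2100 genes, 5th to 95th percentile -0.53 to 1.55) and 0.62 in EE-TOPO (2112 genes, -0.63 to 1.61). Among genes of 30 to 50 kb it was -0.10 in both (5th percentile -1.12 and -1.18). HLA-B, HLA-C, HLA-E, B2M and TAP1 belong to the short class and the 3 complement regulators to the long one. HLA-B and HLA-C lay above the 95th percentile of their class in both regimens, while HLA-E, B2M and TAP1 lay under it. CD46, at -0.94 and -1.03, lay above the 5th percentile of its class. On day 3 the median of the short class was -0.12 in CONV-TOPO and -0.26 in EE-TOPO. The part of gene length in the results of either day was not tested.

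To set an error on these differences, the 2 topotecan libraries of each day were compared with the 3 untreated libraries in limma over 14836 genes, so that the error is the spread between regimens and among untreated days. On day 7, 5 of the 6 class I genes rose, where 20.2% of all genes tested rose. The log2 difference was 2.57 for HLA-B (SE 0.33, adjusted p = 0.00027), or 5.92-fold on the scale of scaled CPM + 1, and 1.89 for HLA-C (SE 0.23, adjusted p = 0.00019). B2M rose by 1.16 (SE 0.18, adjusted p = 0.00069), TAPBP by 1.10 (SE 0.14, adjusted p = 0.00023) and HLA-E by 0.86 (SE 0.19, adjusted p = 0.0050). HLA-B ranked 24th and HLA-C 65th from the highest of all genes. TAP1 had a difference of 0.71 (SE 0.28) that missed the threshold in limma (adjusted p = 0.059). HLA-E was lost when the EE-TOPO day-7 library was left out (adjusted p = 0.053), TAP1 passed when the untreated day-3 library was left out (log2 difference 1.03, adjusted p = 0.0016), and its difference was 0.38 (adjusted p = 0.12) without untreated day 0.

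Of the complement regulators, CD46 fell by 0.67 on the log2 scale (SE 0.16, adjusted p = 0.0060) and CD55 by 0.43 (SE 0.15, adjusted p = 0.044), where 23.3% of all genes tested fell. The CD46 call was lost without the EE-TOPO day-7 library (adjusted p = 0.056). The CD55 call was lost without any 1 of 5 libraries (untreated day 3, untreated day 7, CONV-TOPO day 3, EE-TOPO day 3 or EE-TOPO day 7), and without EE-TOPO day 7 its difference was -0.23 (limma adjusted p = 0.37). CD59 had a difference of 0.03 (95% interval -0.33 to 0.39), and its sign turned negative with library totals. With library totals as the only scaling, 1994 genes rose and 4779 fell on day 7, in place of 2990 and 3454, since that scaling moves the median gene by 0.21 in CONV-TOPO and 0.19 in EE-TOPO on the log2 scale. The directions of the other 8 genes on day 7 were the same under each scaling tried.

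**Figure D3:**
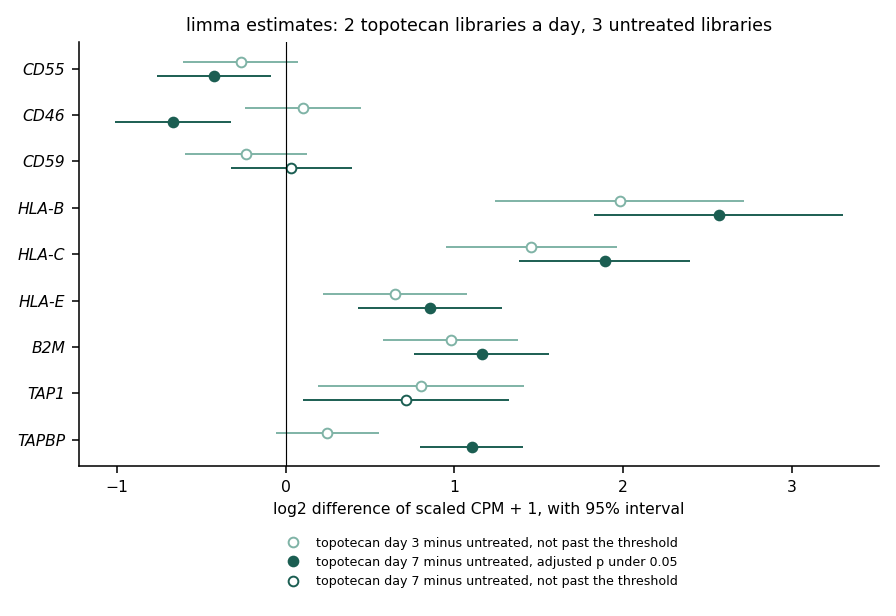
Log2 difference of scaled CPM + 1 from limma (x axis) with its 95% interval (bars) for each gene (y axis), topotecan day 3 and day 7 against the untreated libraries, with filled points where the adjusted p was under 0.05. On day 7 the filled points are the class I genes other than TAP1, which lie to the right of 0, and CD55 and CD46, which lie to the left.

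On day 3 the same fit called 0 of 14836 genes, with 2286 at an unadjusted p under 0.05. HLA-C had a log2 difference of 1.46 (adjusted p = 0.076), HLA-B of 1.98 (adjusted p = 0.092), B2M of 0.98 (adjusted p = 0.12), TAP1 of 0.80 (adjusted p = 0.23) and HLA-E of 0.65 (adjusted p = 0.20) in limma. HLA-B ranked 8th and HLA-C 27th from the highest of all genes. Without the untreated day-3 library these 5 genes passed the threshold, with limma adjusted p from 0.0049 for HLA-B to 0.025 for HLA-E and B2M, and the log2 difference of HLA-B was then 2.32, in a fit that called 1.43% of all genes. Without the untreated day-0 library none of the 5 passed, and the differences were lower, at 1.58 for HLA-B (limma adjusted p = 0.11) and 0.47 for TAP1 (0.53). Against the untreated day-3 library alone they were 1.30 for HLA-B (limma adjusted p = 0.14), 0.25 for HLA-E (0.55) and 0.17 for TAP1 (0.68). The differences of CD55 (-0.27), CD46 (0.10) and CD59 (-0.24) had intervals that held 0.

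Between days 3 and 7 under topotecan, CD46 fell by 0.77 on the log2 scale (SE 0.17, limma adjusted p = 0.0044), where 23.5% of genes fell, and TAPBP rose by 0.86 (SE 0.15, limma adjusted p = 0.0013), where 21.7% rose. Neither gene differed from untreated past the threshold on day 3. When each day was set against its own untreated library, an alternative chosen after seeing the data, the change in the topotecan effect from day 3 to day 7 was -1.35 for CD46 (limma adjusted p = 0.0022), 1.04 for TAPBP (0.0057) and 1.15 for HLA-B (limma adjusted p = 0.027), where 13.8% of genes tested fell and 14.7% rose. Each untreated arm of that fit is 1 library, so its error comes from the spread between the regimens alone and the untreated libraries are assumed to vary alike. The ratio of TAPBP to TAP1 within a library, which no scaling between libraries alters, was 1.24 and 1.31 in the day-3 topotecan libraries and 2.45 and 2.48 on day 7. In untreated libraries it was 2.57, 1.39 and 1.86 on days 0, 3 and 7, so the day-7 topotecan values lay within the untreated range.

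The comparison of the regimens, which asks whether the schedule of the same drug matters, called 0 of 14836 genes in a limma fit with treatment and day as terms (6 libraries), with 134 genes at an unadjusted p under 0.05. EE-TOPO minus CONV-TOPO was 0.45 for HLA-B (95% interval -0.41 to 1.31), 0.34 for HLA-C (-0.41 to 1.09), 0.24 for B2M (-0.46 to 0.94) and -0.33 for CD55 (-0.86 to 0.20). For the other 5 genes it lay between -0.15 and 0.05. Set directly against each other, the EE-TOPO library held 1.33 times (counting interval 1.30 to 1.37) the HLA-B of CONV-TOPO on day 3 and 1.40 times (1.37 to 1.44) on day 7, and 0.826 and 0.765 times its CD55. None of the 9 genes passed 1.5-fold between the regimens on either day, as did 1.78% of genes upward and 1.52% downward on day 3 and 1.82% and 1.88% on day 7. The intervals of the fit hold differences beyond that fold for all 9 genes.

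In that fit, each regimen against untreated also gave 0 called genes, with 527 for EE-TOPO and 257 for CONV-TOPO at an unadjusted p under 0.05. HLA-B was 2.10 higher in EE-TOPO (SE 0.35, limma adjusted p = 0.91) and 1.65 in CONV-TOPO (SE 0.35, limma adjusted p = 0.91), and ranked 13th and 20th from the highest of all genes. The fit has 2 residual degrees of freedom and depends on single libraries. Leaving out any library leaves 1 library in its group, so only differences are given for such fits. Without untreated day 3, the baseline is the untreated day-7 library alone. HLA-B was then 2.68 higher in EE-TOPO and 2.23 in CONV-TOPO, beside same-day log2 ratios of 2.70 and 2.21 on day 7. CD46 was at -1.03 and -0.93. Without untreated day 7, the baseline is the day-3 library alone. HLA-B was then 1.53 higher in EE-TOPO and 1.08 in CONV-TOPO, beside day-3 ratios of 1.51 and 1.10. CD46 was at 0.31 and 0.42. Without CONV-TOPO day 3, CONV-TOPO day 7 or EE-TOPO day 3, HLA-B in EE-TOPO was at 2.10, 2.10 and 2.42.

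The share that HLA-B takes of the 3 heavy chain transcripts within a library depends on no scaling between libraries. Of the estimated reads of HLA-B, HLA-C and HLA-E together, HLA-B held 14.8% on untreated day 0 (exact interval 14.1 to 15.5), 21.4% on day 3 and 19.2% on day 7. It held 26.9% and 31.0% in CONV-TOPO and 30.7% and 33.1% (32.7 to 33.6) in EE-TOPO on days 3 and 7. HLA-C held 41.7% to 44.1% in untreated libraries and 46.7% to 47.9% under topotecan, and HLA-E 36.9% to 41.1% and 19.0% to 26.5%. None of the 3 shares overlapped between untreated and topotecan libraries. The shares add up to the whole, so they are not separate results, and such shares were not computed for other sets of genes. The summed level of the 3 heavy chains was 0.727, 1.03 and 0.845 times that of B2M in untreated libraries and 1.09 to 1.35 times under topotecan. It was 0.281, 0.631 and 0.4003 times the summed CD55, CD46 and CD59 level without drug, and 1.04 to 1.81 times with it.

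**Figure D4:**
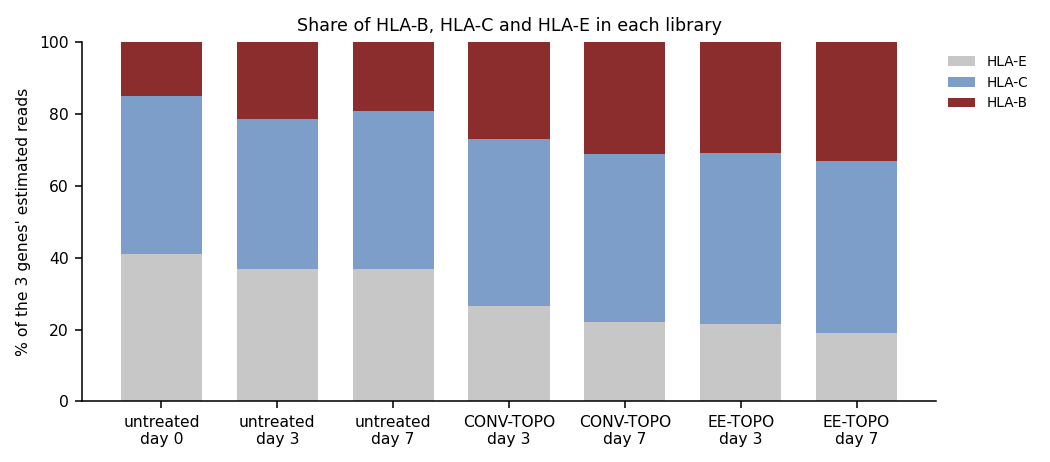
Bars give the percentage of the estimated reads of HLA-B, HLA-C and HLA-E (y axis, 0 to 100) that each gene held in each library (x axis). The HLA-B share is 14.8% to 21.4% in the 3 untreated libraries and 26.9% to 33.1% in the 4 topotecan libraries.

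The rest of the antigen presentation pathway was read from lists of genes, to be set beside the 20.2% of all genes tested that rose and the 23.3% that fell on day 7. Of 4 other heavy chain genes tested on day 7, HLA-F (log2 difference 2.04, limma adjusted p = 0.0017) and FCGRT, the neonatal Fc receptor (1.15), rose, and MR1 (0.23) and HFE (-0.26) did not pass the test. HLA-F was at 3.52, 13.4 and 9.66 scaled CPM untreated and 24.9 to 36.2 under topotecan. Of the 8 proteasome genes, 7 rose, among them the immunoproteasome subunits PSMB9 (1.49), PSMB10 (1.37) and PSMB8 (1.19), but also PSMB5 (0.67) and PSMB6 (0.97), the constitutive subunits that they replace, and the list had a median of 0.88 beside -0.05 for all genes. Against same-day untreated libraries, all genes spanning under 10 kb had day-7 median log2 ratios of 0.64 in CONV-TOPO and 0.62 in EE-TOPO. The part of gene length in the results of these lists was not tested. Of 8 other loading genes, TAPBPL (1.14), a tapasin relative, rose. ERAP1 (-0.59), a peptide-trimming enzyme, and CANX (-0.40), the chaperone calnexin, fell. TAPBPL was at 1.33 to 5.17 scaled CPM. TAP2, the partner of TAP1, had a difference of 0.44 (limma adjusted p = 0.066), and CALR, calreticulin, of 0.36 (0.15).

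Of 26 genes that regulate class I transcription or surface level, 7 rose and 5 fell, with a median of 0.08. RELA, a subunit of NF-kB, rose by 0.68 (limma adjusted p = 0.0042) and IRF9, part of the interferon-activated complex that binds the ISRE, by 1.02 (0.028), while RFX5 (-0.67) and CREB1 (-0.42), which bind class I promoters, fell. IRF9 was at 32.2, 92.8 and 43.9 scaled CPM untreated on days 0, 3 and 7, and at 80.5 to 118.9 under topotecan. Its groups therefore overlapped. STAT2, also among the 26, was at 114, 208 and 179 untreated. It was at 241 and 129 with CONV-TOPO and 158 and 113 with EE-TOPO on days 3 and 7. NLRC5, the class I transactivator, did not pass (0.24, limma adjusted p = 0.66), nor did IRF1 (0.35).

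The complement genes gave no single direction, beside the 20.2% of all genes tested that rose and the 23.3% that fell on day 7. Of 13 components tested on day 7, C3 (1.56), CFD (1.10), C1R (1.00), CFB (1.00) and C4B (0.72) rose and C5 (-0.86) and MASP2 (-1.15) fell. C3 was at 12.2 to 13.1 scaled CPM in untreated libraries and 20.1 to 45.7 under topotecan. CFB (0.357 to 3.58 scaled CPM), C4B (0.702 to 4.27) and MASP2 (0 to 3.15) were at low levels. Of 3 soluble regulators, SERPING1, the C1 inhibitor (2.09, limma adjusted p = 0.0013), and CLU, clusterin (0.63), rose and PROS1 (-0.69) fell. None of 4 receptors passed, among them ADGRE5, which encodes CD97, a receptor that binds CD55 (0.26, limma adjusted p = 0.082).

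**Figure D5:**
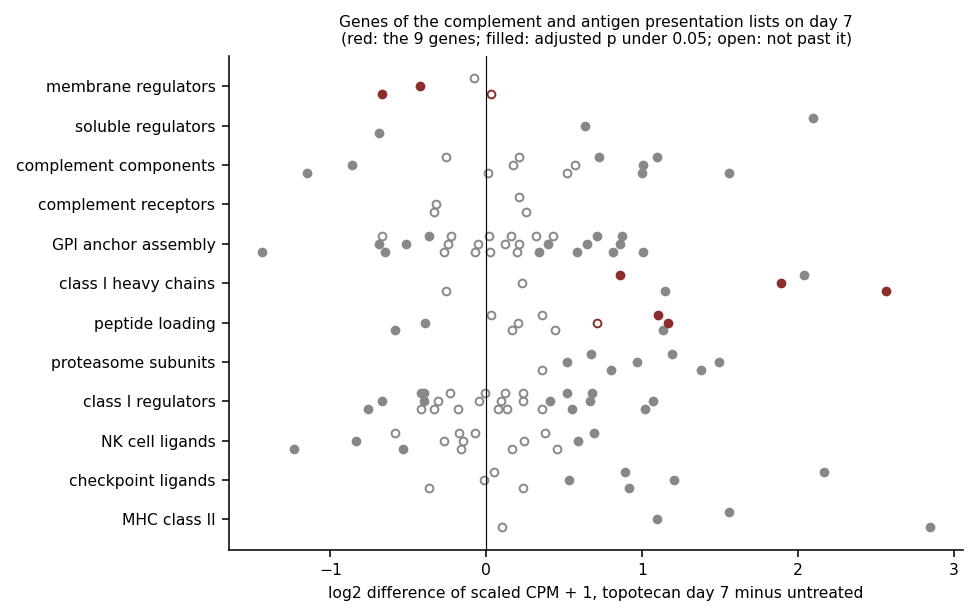
Each point is 1 gene, with its log2 difference of scaled CPM + 1 between topotecan day 7 and untreated (x axis) in its list (y axis), red for the 9 genes, grey for others and filled where the adjusted p was under 0.05. Class I heavy chains and proteasome subunits lie mostly to the right of 0, while complement and regulator lists hold filled points on both sides.

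Across the 7 libraries, the genes whose levels ran most like HLA-B among 9984 genes with at least 10 CPM on average were HLA-C (Pearson r = 0.998), CREB3L1 (0.992), SLC17A5 (0.992) and B2M (0.992). The r with HLA-B was 0.974 for HLA-E, 0.863 for TAP1 and 0.830 for TAPBP. For CD55 they were NUP42 (0.980), ZC3H18 (0.976), GSPT2 (0.969), ZNF185 (0.967) and DNAJC22 (0.961), with r = 0.43 for CD46 and 0.03 for CD59. These r describe 7 points that share treatments and days, on the log2 scale of scaled CPM + 1.

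All 4 epithelial markers, KRT8, KRT18, KRT19 and EPCAM, were present, with a summed level of 2748 to 3455 scaled CPM untreated and 2275 to 5534 under topotecan. VIM, a mesenchymal marker, and CAV1 were present too, and summed to 1003 to 1031 untreated and 1074 to 1452 under topotecan. PTPRC, which marks leukocytes, was under 1 CPM in all 7 libraries, and the 5 immune markers with a row summed to 70.6 to 98.0 untreated and 91.7 to 148 under topotecan, nearly all of it CD68 (66.5 to 142), which rose by 0.89 on day 7. The 7 stromal and endothelial markers with a row summed to 83.3 to 108 and 69.4 to 102. The part of CD68-bearing cells in the class I result was not tested.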

How the data were processed

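RNA from PC-3 spheroids was made into libraries with a TruSeq v2 kit and sequenced as paired ends. STAR was used by the authors to align reads to the hg38 build, and they deposited CPM (counts per 1000000 counted reads) per gene, with an offset of 0.0001 added, which was subtracted here; Partek is named in the submitters' processing notes, and the counting step and its use of strand are not given in the sources used here. Depth was read from the steps between low values (15024000 to 22477000 reads), but only 89.4% to 90.8% of values under 1.5 CPM were whole reads within 0.05 read, so no count test was run.

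CPM were divided by factors from a trimmed mean of M values (0.883 to 1.09) to give scaled CPM. Genes with at least 0.529 CPM (10 reads at the median depth) in 2 or more libraries were tested, 14836 of 18144, on log2(scaled CPM + 1) with limma 3.58.1 in R 4.3.3 (mean-variance trend, Benjamini-Hochberg over all genes, two-sided, threshold 0.05), and the fits were tested on simulated data. Fold changes on this scale understate changes of low genes. One fit had treatment and day as terms (6 libraries, 2 residual degrees of freedom), as treatment by day variation is the only error in it. The other set 2 topotecan libraries a day against 3 untreated libraries (4 residual degrees of freedom). These libraries are not replicates, and p-values measure only the spread among them. Ratios of single libraries have exact conditional binomial 95% intervals from the estimated reads, and Poisson or exact binomial ones for levels and shares. They were called at 1.5-fold among genes with a mean of at least 10 CPM, with no test.

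The 9 genes and the lists were chosen with earlier results of these data known. Genes named besides them are, from each list, up to 2 with the highest and 2 with the lowest day-7 difference among genes with at least 5 CPM on average, a few pathway genes set by name, up to 5 genes most like CD55 and HLA-B, and any gene in a count of 5 or fewer. A few genes are not reported here and were left out of the lists, though they stayed in the fits. Other genes named beside those were chosen after their values were seen. Alternatives were library totals, median-of-ratios factors, a pseudocount of 0.1, no filter, no trend, other baselines and each library left out. Coordinates are hg38, and transcript lengths are from GENCODE 44.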

Additional observations from a re-analysis of the deposited data

Results flagged for a closer look

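CD46, TAPBP and HLA-B were picked out by the size of the difference in topotecan effect between the days. Each day was set against its own untreated library, a baseline chosen after seeing the data. The day-7 effect minus the day-3 effect was then -1.35 for CD46, 1.04 for TAPBP and 1.15 for HLA-B. The untreated arms of that fit hold 1 library each. Since the genes were picked by this same difference, its size is no separate support. For CD46 the single libraries moved in opposite directions on the 2 days. Its log2 ratio to untreated was 0.43 in CONV-TOPO and 0.31 in EE-TOPO on day 3, and -0.94 in CONV-TOPO and -1.03 in EE-TOPO on day 7, while untreated CD46 itself was at 189 scaled CPM on day 3 and 282 on day 7. No group held enough libraries to look for a library far from its fellows.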

How the results depend on the processing

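The labels number no replicates within a treatment and day. The day was the only possible block, and the fit with treatment and day as terms holds it, while with treatment as the only term the count of called genes was also 0 in its 3 comparisons. Values of single genes with a pseudocount of 0.1 kept their direction and side of the threshold. With library totals, CD59 turned to -0.0682 (CONV-TOPO minus untreated), -0.167 (topotecan day 7 minus untreated) and -0.01 (day 7 minus day 3), HLA-E to -0.0695 and B2M to -0.0939 (both day 7 minus day 3). CD59 in CONV-TOPO was -0.025 with treatment as the only term, and on day 7 -0.0506 against same-day untreated libraries. None of these was past the threshold. The CD55 call on day 7 was lost with median-of-ratios factors (limma adjusted p = 0.064), no filter (0.064), no trend (0.085) and same-day baselines (0.14), and TAP1 passed with median-of-ratios factors (0.049) and same-day baselines (0.0057). Over 13 alternatives the adjusted p of CD55 ran from 0.0079 to 0.37. Same-day baselines called 2 genes on day 3. With day 0 as baseline, 1357 genes in CONV-TOPO and 1846 in EE-TOPO passed 1.5-fold on day 3. Leaving out 1 library at a time, the count of called genes ran from 0 to 6185 (EE-TOPO minus untreated), 0 to 6469 (CONV-TOPO minus untreated), 0 to 75 (EE-TOPO minus CONV-TOPO), 0 to 212 (topotecan day 3 minus untreated), 4047 to 6271 (day 7 minus untreated) and 3847 to 6929 (day 7 minus day 3).

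In the fits with any 1 library left out, these differences changed sign. With treatment and day as terms, a left-out untreated library leaves 1 untreated day as the baseline. EE-TOPO minus untreated ran from -1.03 to 0.31 for CD46. CONV-TOPO minus untreated ran from -0.93 to 0.42 for CD46. EE-TOPO minus CONV-TOPO ran from -0.45 to 0.24 for CD46, -0.20 to 0.30 for HLA-E, -0.33 to 0.13 for TAP1 and -0.39 to 0.29 for TAPBP. Topotecan day 3 minus untreated ran from -0.029 to 0.258 for CD46, day 7 minus untreated from -0.069 to 0.0926 for CD59, and day 7 minus day 3 from -0.35 to 0.0345 for CD55 and -0.205 to 0.0234 for TAP1. As to depth, the 9 genes held at least 1541 estimated reads in each library.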

Other observations

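Of 15 ligands of NK cell receptors tested on day 7, 5 passed, beside 43.4% of all genes tested. NECTIN2 (log2 difference 0.69, limma adjusted p = 0.00083), a ligand of DNAM-1, and ICAM1 (0.59, adjusted p = 0.031), a ligand of the integrin LFA-1, rose. NECTIN3 (-0.84), PVR (-0.54) and NCR3LG1 (-1.23), the last at under 2 scaled CPM in all 7 libraries, fell, and MICA (0.17) and MICB (0.24) did not pass. Of 9 checkpoint ligands, TNFRSF14 (1.20), VSIR (0.92), CD276 (0.53), LGALS1 (0.89) and LGALS9 (2.17) rose, where 20.2% of all genes tested rose. LGALS9 was at 0.459 to 9.85 scaled CPM over the 7 libraries. CD274, which encodes PD-L1, was at 3.88, 10.1 and 4.99 scaled CPM untreated, 6.74 and 3.92 in CONV-TOPO and 9.29 and 8.42 in EE-TOPO, with a difference of -0.01 (adjusted p = 0.98).

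Of 4 MHC class II pathway genes tested, 3 rose on day 7, all from low levels, where 20.2% of all genes tested rose. CD74, the invariant chain, was at 0.460, 1.02 and 1.40 scaled CPM untreated and 6.92, 9.02, 9.21 and 18.0 under topotecan (CONV-TOPO days 3 and 7, then EE-TOPO), and rose by 2.84 on day 7 (limma adjusted p = 0.00012). HLA-DMA (1.56) and CTSS, cathepsin S (1.09), rose, and CIITA, the class II transactivator, was at 0.10 (adjusted p = 0.87). Of 28 genes for the GPI anchor that holds CD55 and CD59, 9 rose and 5 fell, with a median of 0.14. Over all genes tested, 20.2% rose and 23.3% fell on day 7, with a median of -0.05. DPM3 (1.00) and PIGQ (0.87) rose, and PGAP1 (-1.44), which remodels the anchor, and PIGK (-0.69), part of the transamidase that attaches it, fell. Of 4 membrane complement genes with enough reads, the one besides the 3 regulators was THBD, at under 1 scaled CPM in all 7 libraries. Among the markers, TMPRSS2 rose by 0.83, and FOLH1 (0.07), another luminal gene, did not pass. Of 3 stromal and endothelial genes tested, ACTA2 (0.81) rose and PECAM1 (-0.19) and COL1A1 (-0.36) did not pass. ACTA2 was at 0.949 to 3.69 scaled CPM over the 7 libraries.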
